A study of Capra hircus with 6 samples.

Results

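Messenger RNA is removed from cells along several routes, and DCP2, DCP1A, EXOSC3 and RC3H1 are members of 3 of them. DCP2 is the enzyme that cuts the cap from the 5′ end of an mRNA and DCP1A is its cofactor, after which the message is degraded from that end. EXOSC3 is a subunit of the RNA exosome, the complex that degrades RNA from the 3′ end, and RC3H1 encodes roquin-1, which binds stem-loops in chosen mRNAs and recruits the deadenylase complex CCR4-NOT. In the embryo these routes take part in clearing the mRNAs left by the oocyte when control passes to the zygotic genome. The 4 genes were chosen by name as members of these routes, with earlier results of these data known. Their common direction is therefore shaped by the choice. Their identifiers were ENSCHIG00000011569 (DCP2), ENSCHIG00000023880 (DCP1A), ENSCHIG00000018466 (EXOSC3) and ENSCHIG00000002873 (RC3H1), and all 4 had a row among the 5154 genes of the deposited table.

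The study asked what YBX1, a Y-box protein that binds mRNA, does in early development. Goat zygotes from in vitro fertilization received, by microinjection, either 20 µM siRNA directed at YBX1 (YBX1 knockdown) or the MISSION universal negative control siRNA (controls). Embryos at the 8-cell stage were collected 72 h later, and the methods state that 30 of each were pooled in 3 replicates. Each group had 3 libraries, made with Smart-seq2, a full-length cDNA method without molecular identifiers. Both groups were injected, and no uninjected embryos were among the libraries. The labels do not say whether the 3 libraries of a group came from separate fertilizations, so that the p-values measure the spread between these libraries, which may be partly technical. In pooled embryos, less RNA per cell and fewer cells of a kind cannot be told apart. YBX1 itself was not analysed here, because its symbol was not paired with an identifier of the table.

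Expression was given as FPKM, the fragments of a gene relative to its length and to the total fragments of the library, so that levels of different genes can be compared. The libraries held between 10354990 (control 1) and 12688297 (knockdown 3) fragments, as recovered from the steps between the FPKM values. The table holds genes that the authors had called as differing between these groups, so that a difference in the 4 genes was a condition for having a row and is no independent evidence. With limma on the log2(FPKM + 1) scale, a gene was called at an adjusted p under 0.05 together with a log2 fold change beyond -1 or 1. Of the 4500 genes tested, 56.2% were called lower after YBX1 knockdown and 34.1% were called higher. The split was 2530 lower and 1534 higher without further scaling, 1348 and 1574 with the libraries scaled by the median of ratios, 1669 and 1571 with an equal FPKM sum, and 1403 and 1549 with quantile normalization. The median log2 fold change of the genes tested was -1.24 without further scaling and was moved by 0.59 with an equal FPKM sum, 0.85 with the median of ratios and 0.72 with quantile normalization.

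Control 3 stood apart in several genes. TNFAIP6, a marker of the cumulus cells that surround the oocyte, had 20.5 FPKM in control 3, against 1.73 and 2.38 FPKM in controls 1 and 2 and between 2.14 and 2.37 FPKM in the knockdown libraries. It was the only one of 10 cumulus and granulosa markers with a row and a symbol, and the other 9, such as HAS2, PTX3 and CYP19A1, were not analysed here. H1-8, the linker histone of the oocyte, had 680.5 FPKM in control 3, against 252 and 194 FPKM in controls 1 and 2 and 859 to 1393 FPKM in the knockdown libraries. LHX8, a transcription factor of oocytes, had 23.8, 12.3 and 16.8 FPKM in controls 1, 2 and 3, so that control 3 did not stand apart, and 28.6 to 69.1 FPKM after knockdown. These 2 of 14 oocyte and embryo markers were both called higher, with log2 fold changes of 1.70 and 1.42, as were 34.1% of the genes tested. No other marker of the 14 and none of the 3 sperm markers had a row and a symbol. The part of cumulus RNA and of developmental stage in the results below was not tested. Log2 fold changes without control 3 are given for the 4 genes, their ratios and the other decay genes in which control 3 was the lowest control.

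All 4 decay genes were lower in YBX1 knockdown embryos. The mean FPKM after knockdown was 19.5% of the control mean for DCP2, 29.9% for DCP1A, 12.7% for EXOSC3 and 10.9% for RC3H1. In each gene every knockdown library lay below every control, as in 57.8% of the 4500 genes tested, while in 33.8% every knockdown library lay above. With 3 libraries against 3, an exact permutation test gives such a gene p = 0.1, the smallest value it allows. All 4 were among the genes called lower by limma, as were 56.2% of the genes tested. Their median log2 fold change was -2.44, against -1.95 for all genes called lower. It lay between the quartiles of the genes called lower, -2.68 and -1.49. Relative to the median of the genes tested, the log2 fold change was -1.08 for DCP2, -0.48 for DCP1A, -1.53 for EXOSC3 and -1.33 for RC3H1. With the median of ratios scaling the log2 fold change itself was -1.33 for DCP2, -0.74 for DCP1A, -1.80 for EXOSC3 and -1.73 for RC3H1.

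**Figure D1:**
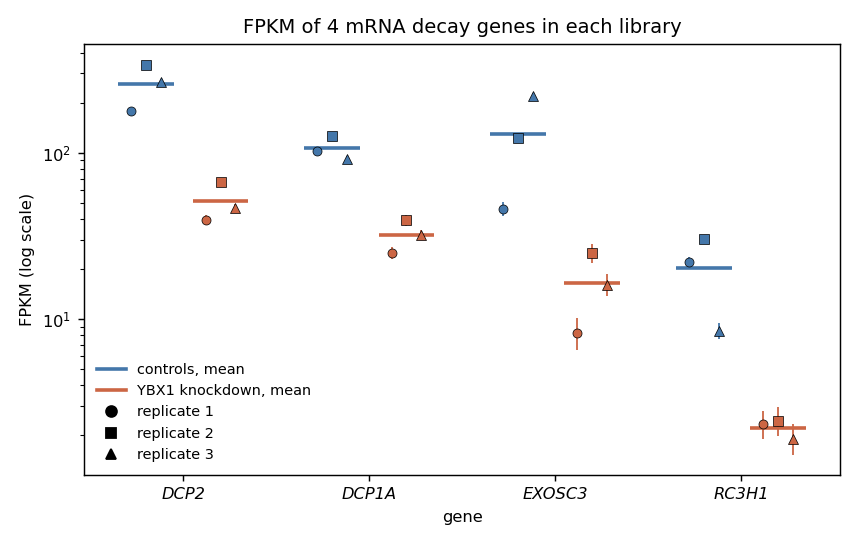
FPKM (log scale) of DCP2, DCP1A, EXOSC3 and RC3H1 in the 3 controls and the 3 YBX1 knockdown libraries. Points are libraries, vertical bars are 95% Poisson intervals of the fragment counts, and horizontal lines are group means. The lowest control exceeded the highest knockdown library in each gene, and EXOSC3 and RC3H1 differed most among the controls.

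DCP2, the decapping enzyme, was the most abundant of the 4. It had 177, 337 and 268 FPKM in controls 1, 2 and 3, and 39.4, 66.8 and 46.6 FPKM in knockdown libraries 1, 2 and 3. The controls differed among themselves by 1.90 times and the knockdown libraries by 1.69 times, and the lowest control was still 2.66 times the highest knockdown library. DCP2 fell by 2.32 on the log2(FPKM + 1) scale (SE 0.41, limma adjusted p = 0.000720). A lower log2 fold change was found in 20.1% of the genes tested, of which 34.1% were called higher. DCP2 lay between the quartiles of the genes called lower, -2.68 and -1.49. Leaving out control 3 gave -2.27, and leaving out each library in turn gave -2.57 to -2.11.

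DCP1A, the decapping cofactor, varied least among the controls. Its level was 103, 126 and 91.4 FPKM in controls 1, 2 and 3, and 24.9, 39.1 and 32.0 FPKM in knockdown libraries 1, 2 and 3. The coefficient of variation was 16.7% in the controls and 22.2% after knockdown, and no control came near the knockdown range. DCP1A fell by 1.72 on the log2(FPKM + 1) scale (SE 0.38, limma adjusted p = 0.00221), the smallest fall of the 4. The fall was also smaller than the median of the genes called lower, -1.95, and 34.4% of the genes tested had a lower log2 fold change. Without control 3 the log2 fold change of DCP1A was -1.83, and with each library left out in turn it was -1.87 to -1.56. With the median of ratios scaling it was -0.74 and no longer passed (limma adjusted p = 0.113, against 0.00200 to 0.0344 under the other alternatives).

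EXOSC3, a cap subunit of the exosome that contacts RNA as it enters the complex, varied most among the controls. It had 46.0, 122 and 219 FPKM in controls 1, 2 and 3, a range of 4.76 times. The knockdown libraries had 8.19, 24.9 and 16.1 FPKM, a range of 3.04 times. Control 1 was thus the low control and knockdown library 1 the low knockdown library, and the lowest control was 1.85 times the highest knockdown library, the narrowest gap of the 4 genes. EXOSC3 fell by 2.76 on the log2(FPKM + 1) scale (SE 0.58, limma adjusted p = 0.00169). The value rested partly on single controls, since it was -3.37 without control 1, more than 1.5 times as large on the linear scale, and -2.25 without control 3, and the call was made in both cases. Relative to the mean of the other controls, EXOSC3 was at -1.81 in control 1 and at 1.53 in control 3 on the log2(FPKM + 1) scale, and 0.867% and 96.2% of the genes tested had a lower value in these libraries.

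RC3H1, the sequence-specific factor, was the least abundant. It had 22.1, 30.1 and 8.47 FPKM in controls 1, 2 and 3, and 2.32, 2.43 and 1.89 FPKM in knockdown libraries 1, 2 and 3. Here control 3 was the low control, while the knockdown libraries lay close together, with a coefficient of variation of 12.9% against 54.1% in the controls. The lowest control was 3.49 times the highest knockdown library, the widest gap of the 4 genes. RC3H1 fell by 2.57 on the log2(FPKM + 1) scale (SE 0.48, limma adjusted p = 0.000912). Its log2 fold change was -3.07 when control 3 was left out and -2.21 when control 2 was left out. At these low levels the scale understates the change, and the ratio of the mean FPKM of the controls to that after knockdown was 9.16, against 7.87 for EXOSC3, 5.12 for DCP2 and 3.34 for DCP1A.

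The gaps between the groups were wider than the counting error. RC3H1 had 842, 1350 and 344 fragments in the controls and 103, 100 and 88 fragments in the knockdown libraries. The 88 fragments of knockdown library 3 give a 95% exact Poisson interval of 1.51 to 2.33 FPKM, and the 344 fragments of control 3 give 7.60 to 9.42 FPKM. EXOSC3 had 394, 1234 and 2003 fragments in the controls and 82, 231 and 169 fragments after knockdown, with an interval of 6.51 to 10.2 FPKM in knockdown library 1. The 95% intervals of EXOSC3 in the 3 controls did not overlap either. DCP1A had at least 533 fragments in every library and DCP2 at least 986. The intervals cover counting error only, because reads copied by PCR do not count separate molecules.

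The order of the mean levels was the same in both groups except for EXOSC3 and DCP1A. In the controls the means were 261 ± 79.98 FPKM for DCP2, 129 ± 86.7 FPKM for EXOSC3, 107 ± 17.8 FPKM for DCP1A and 20.3 ± 11.0 FPKM for RC3H1 (SD, n = 3 each). The ranges of EXOSC3 and DCP1A overlapped, as did those of EXOSC3 and DCP2, while RC3H1 lay below the 3 others in every control. After knockdown the means were 50.9 ± 14.2 FPKM for DCP2, 32.0 ± 7.12 FPKM for DCP1A, 16.4 ± 8.36 FPKM for EXOSC3 and 2.21 ± 0.286 FPKM for RC3H1 (SD, n = 3 each). Neighbours in this order were separate for DCP2 and DCP1A and for EXOSC3 and RC3H1, whereas the highest EXOSC3 value and the lowest DCP1A value were both 24.9 FPKM. Against the whole table, the FPKM of RC3H1 exceeded that of 50.1% to 70.5% of the genes in a control and 35.0% to 40.5% in a knockdown library, and that of DCP2 exceeded 90.2% to 93.6% and 79.7% to 85.5%.

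To compare 5′ decapping, the 3′ exosome and sequence-specific decay, the ratio of each pair of the 4 genes was taken within each library, which does not depend on the scaling between libraries. The 6 pairs were tested by two-sided exact permutation with adjustment over the 6, and no pair could reach p under 0.1. The ratio of the enzyme to its cofactor was the only one without overlap, at the smallest p the design allows. The ratio of DCP2 to DCP1A was 1.72, 2.66 and 2.93 in controls 1, 2 and 3, and 1.58, 1.71 and 1.46 in knockdown libraries 1, 2 and 3. Every knockdown ratio was below every control ratio, although control 1 and knockdown library 2 were nearly equal. The difference of the mean log2 ratios was -0.59 (SE 0.25, exact permutation p = 0.1, adjusted p = 0.6), and -0.44 without control 3.

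The ratio of DCP1A to RC3H1 was higher in every knockdown library than in controls 1 and 2, and higher in knockdown libraries 2 and 3 than in control 3. It was 4.66, 4.19 and 10.8 in controls 1, 2 and 3, and 10.7, 16.1 and 17.0 in knockdown libraries 1, 2 and 3. Control 3 lay just above the lowest knockdown library, and the mean log2 ratio differed by 1.27 (SE 0.48, exact permutation p = 0.2, adjusted p = 0.6). Without control 3 the groups did not overlap and the difference was 1.69 (exact permutation p = 0.1, again the smallest possible). The ratio of DCP1A to EXOSC3 was 2.25, 1.03 and 0.42 in controls 1, 2 and 3, and 3.04, 1.57 and 1.99 after knockdown. Its mean log2 value differed by 1.10 (SE 0.75, exact permutation p = 0.3, adjusted p = 0.6), and the groups overlapped. Single controls moved it by more than 1.5 times on the linear scale, to 0.48 without control 3 (exact permutation p = 0.5) and 1.69 without control 1 (exact permutation p = 0.1).

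DCP2 could not be set apart from EXOSC3 or RC3H1. The ratio of DCP2 to EXOSC3 was 3.86, 2.76 and 1.22 in controls 1, 2 and 3, and 4.82, 2.68 and 2.90 after knockdown, a log2 difference of 0.51 (SE 0.56, exact permutation p = 0.5, adjusted p = 0.6). That of DCP2 to RC3H1 was 8.01, 11.2 and 31.6 in the controls, and 17.0, 27.5 and 24.7 after knockdown, a log2 difference of 0.68 (SE 0.63, exact permutation p = 0.4, adjusted p = 0.6). Control 3 was the lowest control in the first of these ratios and the highest in the second, and the groups overlapped in both. Without it the differences were 0.04 (exact permutation p = 0.9) and 1.26 (exact permutation p = 0.1).

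EXOSC3 and RC3H1 had no stable order of their falls. Their ratio was 2.08, 4.05 and 25.8 in controls 1, 2 and 3, and 3.53, 10.2 and 8.52 in knockdown libraries 1, 2 and 3. The controls alone spanned the whole range of the knockdown libraries, and the mean log2 ratio differed by 0.17 (SE 1.19, exact permutation p = 1, adjusted p = 1). The sign turned when 1 FPKM was added to each value, to -0.20, and when control 1, control 2 or knockdown library 2 was left out, to -0.60, -0.12 and -0.13, while it was 1.22 without control 3.

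**Figure D2:**
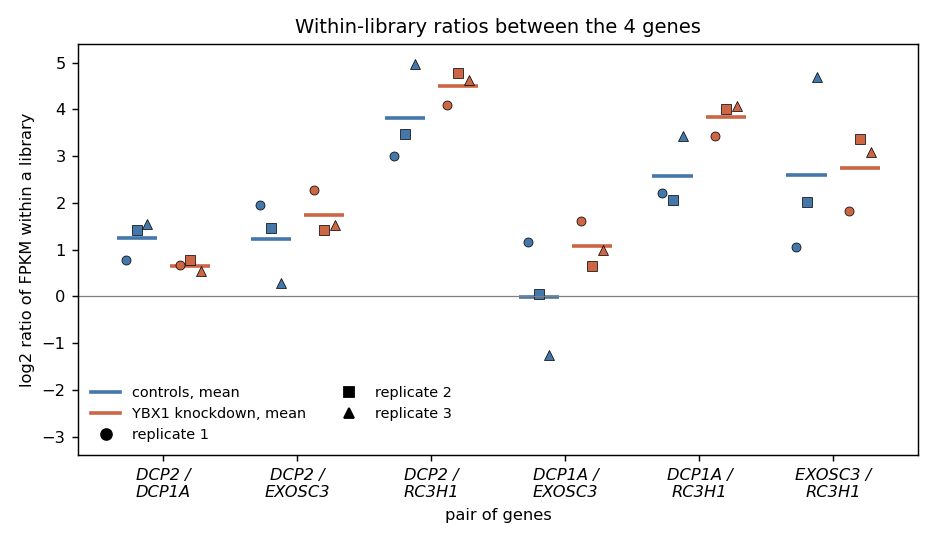
Log2 ratio of the FPKM of each pair among DCP2, DCP1A, EXOSC3 and RC3H1 within each library, for the 3 controls and the 3 YBX1 knockdown libraries. Points are libraries and horizontal lines are group means. The groups were separate only for DCP2 to DCP1A, and control 3 was the highest or the lowest control in all 6 ratios.

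The other genes of mRNA decay were taken from a list of 107 factors in 5 groups. Symbols of 31 of them were paired with an identifier, and 14, the 4 genes included, had a row. The other 17 with an identifier, among them CNOT1, CNOT7, EXOSC7, EXOSC9, EXOSC10, LSM1, PAN3 and UPF2, were not analysed here. Of the 14, 9 were called lower, 3 were called higher and 2 were not called, where 56.2% and 34.1% of all genes tested were called lower and higher. Their median log2 fold change was -1.65, against -1.24 over all genes tested, and that of the 10 besides the 4 genes was -1.18. With the median of ratios scaling 5 of the 14 were called lower and the same 3 were called higher, where 30.7% and 35.8% of the 4393 genes then tested were called lower and higher.

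In the listed group of decapping and 5′ to 3′ decay, 3 of the 4 genes with a row were called lower. Only PATL2 was called higher, where 56.2% and 34.1% of all genes tested were called lower and higher. DDX6, the helicase that activates decapping and represses translation, had 18.2, 16.4 and 7.59 FPKM in controls 1, 2 and 3, and 6.43, 2.86 and 3.70 FPKM after knockdown. The knockdown libraries lay below the controls by a narrow gap, and DDX6 fell by 1.47 on the log2(FPKM + 1) scale (SE 0.46, limma adjusted p = 0.0103). It was not called with any of the 3 scalings between libraries, where its log2 fold change was -0.85 to -0.59, and it had -1.83 without control 3. PATL2, an oocyte protein of the PAT1 family that represses translation, had 2.78 to 4.19 FPKM in the controls and 23.8 to 26.1 FPKM after knockdown, a log2 fold change of 2.63 (SE 0.38, limma adjusted p = 0.000266) and of 3.25 to 3.46 with the 3 scalings. Its FPKM was between 0.00825 and 0.0165 of that of DCP2 in a control and between 0.392 and 0.659 in a knockdown library. The FPKM of DCP2 was 9.76, 20.5 and 35.3 times that of DDX6 in controls 1, 2 and 3. After knockdown it was 6.14, 23.4 and 12.6 times that of DDX6 in libraries 1, 2 and 3, so that the groups overlapped. Both ratios are given without a test.

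Within the exosome, EXOSC8 rose where EXOSC3 fell. EXOSC8, a subunit of the hexameric ring on which EXOSC3 sits, had 316, 212 and 334 FPKM in controls 1, 2 and 3, and 976, 439.6 and 991 FPKM in knockdown libraries 1, 2 and 3. Every knockdown library lay above every control, and EXOSC8 rose by 1.41 on the log2(FPKM + 1) scale (SE 0.45, limma adjusted p = 0.0111). The FPKM of EXOSC8 was 6.87, 1.73 and 1.52 times that of EXOSC3 in controls 1, 2 and 3, and 119, 17.7 and 61.6 times in knockdown libraries 1, 2 and 3. This ratio was chosen after its values were seen and is given without a test. EXOSC8 was called higher with each of the 3 scalings, with log2 fold changes of 2.13 to 2.41, and EXOSC3 was called lower with each of them.

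TUT7, ERI1 and ZFC3H1, other factors of 3′ to 5′ decay, were called lower like EXOSC3. TUT7, which adds uridines to the ends of mRNAs that are to be degraded, had 137, 126 and 44.9 FPKM in controls 1, 2 and 3 and 20.7 to 23.7 FPKM after knockdown. It fell by 2.04 on the log2(FPKM + 1) scale (SE 0.47, limma adjusted p = 0.00257). ERI1, a 3′ exonuclease known for histone mRNA, had 323, 258 and 182 FPKM in the controls and 51.3 to 68.7 FPKM after knockdown, a log2 fold change of -2.03 (SE 0.39, limma adjusted p = 0.00111). ZFC3H1, which links polyadenylated nuclear RNA to the exosome, had 5.21 to 12.1 FPKM in the controls and 2.20 to 2.43 FPKM after knockdown, a log2 fold change of -1.58 (SE 0.41, limma adjusted p = 0.00471). It was not called with the 3 scalings between libraries, at log2 fold changes of -1.01 to -0.76. With the median of ratios, TUT7 and ERI1 were still called, at log2 fold changes of -1.06 (limma adjusted p = 0.0470) and -1.03 (limma adjusted p = 0.0331). Without control 3 the log2 fold changes were -2.55 for TUT7, -2.25 for ERI1 and -1.91 for ZFC3H1. Control 3 was the lowest control in TUT7, ERI1 and ZFC3H1, as in DCP1A, RC3H1, DDX6 and PABPC1, and the highest in EXOSC3, EXOSC8 and PATL2.

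Among the 4 listed factors of sequence-specific decay with a row and a symbol, RC3H1 had the largest fall. YTHDF3, a reader of N6-methyladenosine, had 46.0 to 97.9 FPKM in the controls and 13.4 to 23.6 FPKM after knockdown, a log2 fold change of -1.92 (limma adjusted p = 0.00219), and it was not called with the median of ratios scaling (-0.96). HNRNPD, which binds AU-rich elements, had 150 to 244 FPKM in the controls and 97.0 to 115 FPKM after knockdown, and its log2 fold change of -0.71 was not called (limma adjusted p = 0.0951) and lay between -0.10 and 0.29 with the 3 scalings. ELAVL2, which is known for stabilizing the mRNAs it binds, had 21.1 to 33.3 FPKM in the controls and 70.5 to 109.8 FPKM after knockdown, and rose by 1.67 on the log2(FPKM + 1) scale (SE 0.39, limma adjusted p = 0.00278), with log2 fold changes of 2.17 to 2.64 with the 3 scalings. Of the listed factors of deadenylation, PABPC1, the protein that coats the poly(A) tail, was the only one with a row and a symbol. It had 153, 104 and 54.7 FPKM in controls 1, 2 and 3 and 43.6 to 56.4 FPKM after knockdown, so that the groups overlapped at control 3. Its log2 fold change was -0.90 (limma adjusted p = 0.0683), and it was called lower without control 3 (-1.29, limma adjusted p = 0.0101). With the 3 scalings it lay between -0.39 and 0.09.

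**Figure D3:**
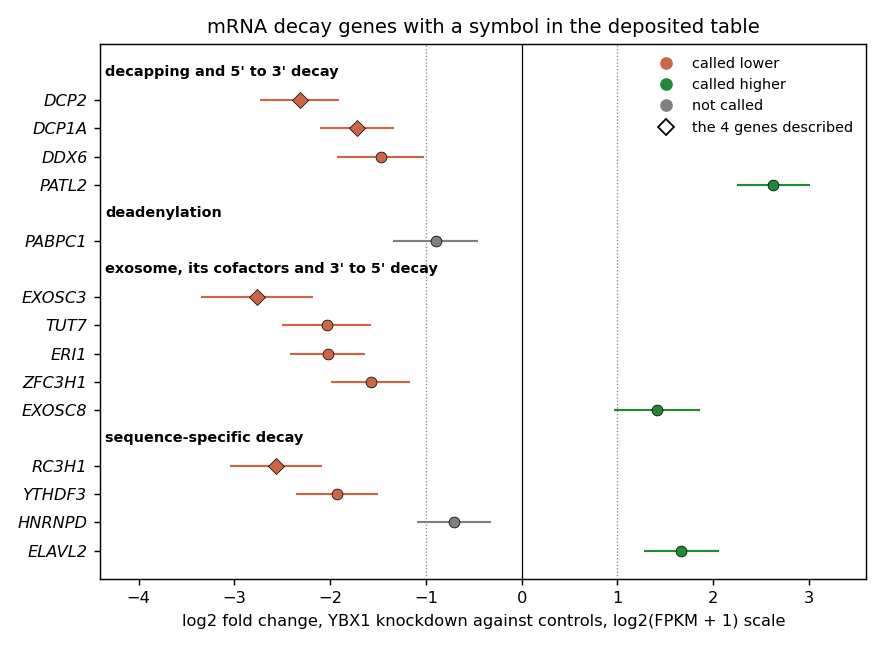
Log2 fold change (YBX1 knockdown against the controls, log2(FPKM + 1) scale) of the 14 mRNA decay genes with a row and a symbol, grouped by route. Points are estimates from limma with bars of 1 standard error, diamonds are DCP2, DCP1A, EXOSC3 and RC3H1, and dotted lines mark 1 and -1. PATL2, EXOSC8 and ELAVL2 were called higher, and PABPC1 and HNRNPD were not called.

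The genes with the most similar pattern were found among 452 other genes with a symbol and a mean FPKM of at least 1, by Pearson's r of log2(FPKM + 1) over the 6 libraries. Since the libraries form separate groups and the genes were selected for differing between them, r mostly follows the group difference and is given as a description. For DCP2 these were PRMT5, an arginine methyltransferase (r = 0.998), HNRNPM, a splicing factor (r = 0.995), and MPZL3 (r = 0.993). PRMT5 had 22.7 to 46.1 FPKM in the controls and 4.53 to 8.67 FPKM after knockdown. For DCP1A they included DUSP11, a phosphatase acting on RNA 5′ ends (r = 0.996), and LARP4, which binds poly(A) (r = 0.996). DUSP11 went from 196 to 337 FPKM in the controls to 7.14 to 16.1 FPKM, a larger fall than that of DCP1A.

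For EXOSC3 the most similar were NDUFA2, a subunit of respiratory complex I, SCNM1, a splicing factor, and NHP2, a component of snoRNA particles, with r of 0.982, 0.978 and 0.978. NHP2 had 330 to 748 FPKM in the controls and 56.5 to 114 FPKM after knockdown. For RC3H1 they were SENP2, a protease for SUMO (r = 0.996), DBF4, the activator of a replication kinase (r = 0.996), and ELL2, an elongation factor (r = 0.995). ELL2 had 22.7 to 87.6 FPKM in the controls and 2.17 to 3.29 FPKM after knockdown. None of the genes named was shared by the lists of the 4. All were called lower, as were 56.2% of the genes tested, and this largely follows from their choice by r with genes that fell. By the same measure DCP2 and DCP1A were the most alike of the 4 genes (r = 0.98), and EXOSC3 and RC3H1 the least (r = 0.71).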

How the data were processed

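Per the labels and the study's methods, the authors used fastp for trimming, HISAT2 for alignment to ARS1, featureCounts for reads with a single mapping and DESeq2 for the comparison. The authors deposited FPKM per gene and library, for called genes only, and the tool that made it is not given in the sources used here. Also deposited were 4 columns of the authors' comparison (a log2 ratio, its p-value, the adjusted value and the direction), none of which was used. Fragments, gene lengths and library totals were recovered as the whole numbers that give the FPKM values, for 5121 of 5154 genes (99.4%, tolerance 0.001 of a fragment), and served for depth only.

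Symbols came from 1130 identifiers paired with them in the study's list of skipped exons (1999 events), which named 456 of the 5154 genes of the table (8.85%). The RefSeq table in hand has another assembly version, so positions and sequences are not given.

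Groups were compared on log2(FPKM + 1) with limma 3.58.1 in R 4.3.3 (lmFit, eBayes with trend), keeping genes whose mean FPKM was 1 or more, and p-values were adjusted by Benjamini-Hochberg over all 4500 of them. Because the table holds called genes, tests and adjustment are shaped by that selection. Ratios between genes were tested by exact permutation in Python 3.11.15 (numpy 2.4.6, scipy 1.17.1, pandas 2.3.3, matplotlib 3.10.9). The fit and the recovery were tested on simulated data. The values named are those of the 4 genes, every listed decay gene with a row and a symbol, and for each of the 4 the 3 most similar genes, of which 1 is not reported here. Members and lists were chosen with earlier results of these data known. Alternatives were a pseudocount of 0.1, no filter, a mean FPKM of at least 5, an equal FPKM sum, the median of ratios, quantile normalization, a block for replicate number, no trend in eBayes and each library left out.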

Additional observations from a re-analysis of the deposited data

How the results depend on the processing

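Every row was there for a called change, so the same direction under other settings is no sign of stability. DCP2, EXOSC3 and RC3H1 passed the thresholds under all 14 alternatives, with log2 fold changes of -2.57 to -1.33, -3.37 to -1.80 and -3.07 to -1.73. DCP1A passed under 13, and with the median of ratios it had -0.74 (limma adjusted p = 0.113). Over the alternatives its adjusted p was 0.00200 to 0.113. With an equal FPKM sum, the median of ratios and quantile normalization, 1669, 1348 and 1403 genes were lower instead of 2530, 51.5%, 46.1% and 47.5% of the called genes instead of 62.3%. These scalings were computed from called genes only. Relative to that median, DCP1A lay at -0.48 in the values reported and at -0.69 to -0.36 with the scalings. The median of ratios left 5 of 14 decay genes lower instead of 9, without DCP1A, DDX6, YTHDF3 and ZFC3H1, while the share of all genes tested that were lower went from 56.2% to 30.7%, and 9 to 10 were lower with each library left out. The difference between EXOSC3 and RC3H1 within a library, 0.17, was -0.20 with log2(FPKM + 1) and ranged from -0.60 to 1.22 with each library left out, while the other 5 pairs kept their sign. Libraries with the same replicate number deviated from their group means with r of 0.0951, 0.140 and 0.163 across genes, not all above the 0.1 set for pairing. Each library correlated best with the one of its own number, a hint from the data and not from the design. A block for the number gave 2542 lower and 1535 higher genes and changed no call among the 14 decay genes. Depth limits EXOSC3 and RC3H1 most among the 4 genes, with 82 and 88 fragments in their lowest libraries, and PATL2 had 51.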
